A study of Mus musculus with 20 samples.

Results

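The transcriptome of the untreated old mouse heart was described from 10 of the 20 libraries of a study of rapamycin feeding. The 10 hearts were chosen by their labels alone, as all animals on the control diet. No heart of a rapamycin-fed animal enters any value below, and the diets are not compared. The mice were C57BL/6, 24 months old when the diet began and 27 months old when the heart was taken 3 months later. Each library came from a whole frozen heart, ground to powder, so atria, ventricles, valves and whatever tissue stayed attached were sequenced together. Polyadenylated RNA was selected with oligo-dT and sequenced as 50-base read pairs on a HiSeq 2000. The sex of the animals is not given in the sources used here. Hearts are named by the number in their label (controls 1, 2, 7, 10, 11, 13, 16, 17, 19 and 20).

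The heart contracts without pause and makes almost all of its ATP in mitochondria, chiefly from fatty acids. Its muscle cells are packed with sarcomeres, in which myosin thick filaments slide along actin thin filaments when calcium leaves the sarcoplasmic reticulum. Between the muscle cells lie endothelial cells, fibroblasts, pericytes, macrophages and a few lymphocytes, and the atria carry their own contractile and hormone genes.

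The libraries held 7039514 to 10594335 counts. Of 34291 listed genes, 22822 had a count in at least 1 heart and 14606 had a mean of at least 1 CPM (counts per 1000000 counts of the library). All 12 fixed cardiomyocyte markers were measured in every heart, and together they took 4.53% to 5.95% of counts in the 9 hearts other than control 19. In control 19 they took 1.98%. Control 19 also held the smallest total and stood apart from the rest. Across genes, its log2 CPM correlated with those of the other hearts at r = 0.844 to 0.896, against 0.958 to 0.985 among the other 9.

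Single hearts held transcripts of other tissues, and these values stand here because several results below rest on them. In control 19 the 12 lung epithelium markers summed to 31833 CPM, led by the club cell secretoglobin Scgb1a1 (18216 CPM) and the surfactant gene Sftpc (6966 CPM). The same list summed to 767 CPM in control 1, 286 CPM in control 20 and 153 to 255 CPM in the others, where most of it was Hopx, a gene that the heart itself expresses (122 CPM or more in every heart). Control 1 and control 20 held airway genes with almost no surfactant: Scgb1a1 stood at 349 and 61.4 CPM, and Sftpc at 4 and 0.0968 CPM. In control 7 the liver gene Alb reached 29.0 CPM (at most 3.65 elsewhere) and the kidney potassium channel gene Kcnj1 16.7 CPM. The sum of the 13 liver markers was nevertheless higher in controls 1 (134 CPM), 19 (121) and 17 (89.4) than in control 7 (78), because most of it was Cyp2e1, at 133 CPM in control 1 and 34.8 CPM in control 7. In control 17 the thymus protease gene Prss16 stood at 21.5 CPM, against at most 0.994 CPM in the other hearts, and Rag1, which recombines antigen receptor genes, at 2.55 CPM against at most 0.105. The sum of the 8 thymus markers, which include genes of mature T cells, was not raised in control 17 (17.4 CPM) and was highest in controls 11 (36) and 19 (31.5). The main values below are given over 10 hearts and again without control 19. For a whole organ, a lower share of a cell type's transcripts can mean fewer of its cells, less RNA per cell or more RNA of other tissue in the total. These cannot be told apart.

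Reads were concentrated on few genes. The mitochondrially encoded COX1, a catalytic subunit of cytochrome c oxidase, took 8.49% of all counts, the 10 highest genes 24.5%, and the 100 highest 39.1%. As few as 344 genes gave 50% of the counts. CYTB, the haem-carrying subunit of complex III, followed at 38334 ± 4543 CPM (SD, n = 10), then the complex I subunits ND5 at 23409 ± 3867, ND1 at 21480 ± 2304, ND2 at 18824 ± 1824 and ND4 at 15081 ± 1465 CPM. COX1 itself ran from 71087 CPM in control 19 through a median of 82664 to 103478 CPM in control 10. Controls 2 and 10 were the 2 highest hearts for COX1, and the other 7 besides control 19 lay close together.

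The highest nuclear gene was Myh6, which encodes the fast cardiac myosin heavy chain. It was 5847 CPM in control 19 and 14067 to 21403 CPM in the other 9 hearts, with a median of 16510 over all 10. Control 19 therefore lay below every other heart by a wide margin. Myoglobin (Mb), the oxygen store of the muscle cell, stood at 10293 ± 1673 CPM, and Atp2a2, the calcium pump of the sarcoplasmic reticulum, at 10037 ± 2266 CPM. Cardiac troponin T (Tnnt2, 6825 ± 1329), tropomyosin (Tpm1, 6362 ± 1284), cardiac actin (Actc1, 4903 ± 1528) and the ventricular light chain (Myl2, 4696 ± 1299) came next among nuclear genes. Between Tpm1 and Actc1 lay the mitochondrial genes ND6 (5548 ± 562) and Rnr2 (5539 ± 900). Rnr2, a ribosomal RNA gene, is not counted in the share of protein-coding mitochondrial genes below. Lpl, the lipase that frees fatty acids from circulating triglyceride, reached 4183 ± 916 CPM. The catalytic core of ATP synthase (Atp5b and Atp5a1, 3724 ± 666 and 3287 ± 563), the giant spring protein titin (Ttn, 3532 ± 861) and the adenine nucleotide carrier Slc25a4 (3246 ± 550) closed the list of 20. The same 20 genes led without control 19, and by the median over hearts. Among those 9 hearts the mitochondrial means were within their SD of the values above, with COX1 at 86410 ± 8515 CPM. The muscle genes were higher and less spread, with Myh6 at 16985 ± 2311, Atp2a2 at 10649 ± 1247, Tnnt2 at 7218 ± 498 and Ttn at 3779 ± 381 CPM (SD, n = 9).

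**Figure D1:**
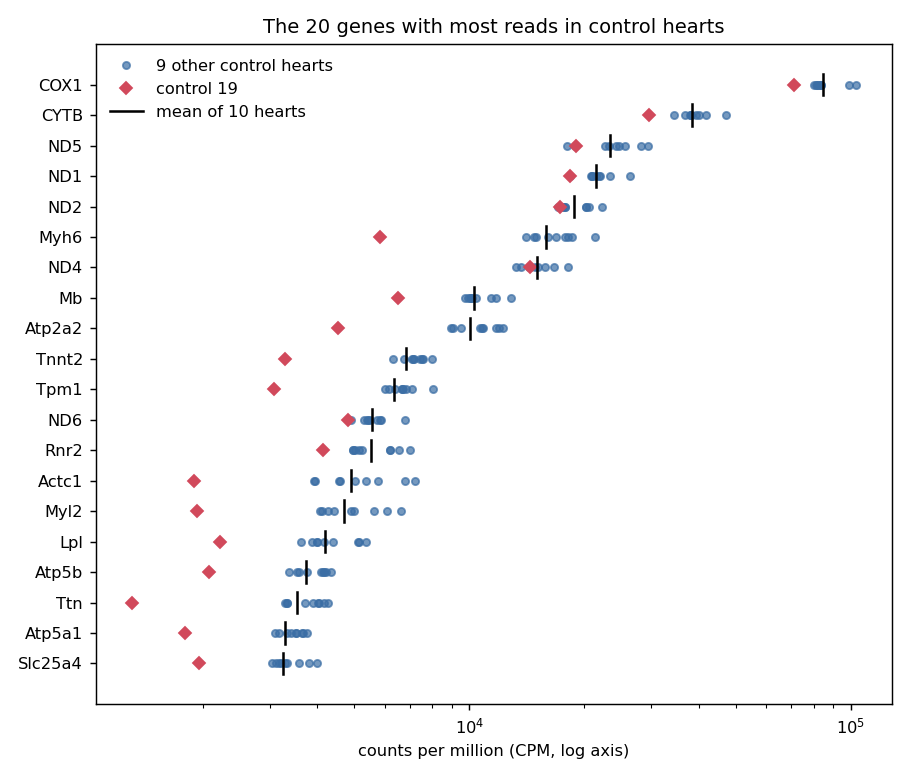
Level in CPM (log axis) of the 20 genes with the highest mean in the 10 control hearts. Circles are the 9 other control hearts, diamonds control 19, and black ticks the mean of 10. COX1 leads at a mean of 84878 CPM, and control 19 lies far below the rest for Myh6, Atp2a2, Tnnt2, Tpm1 and Ttn.

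A read count favours long transcripts, so levels between genes were also set per kilobase of transcript. On that scale 15 of the 20 genes stayed among the first 20. COX1 remained first at 54937 CPM per kilobase, followed by CYTB at 33508 and ND1 at 22445. The first nuclear genes were now short ones: Mb at 9323, Tnnt2 at 5687 and Myl2 at 5283 CPM per kilobase. Myh6 stood at 2596, near Nppa, the atrial natriuretic peptide, at 2307 and Atp2a2 at 2237. Ttn, whose transcript is among the longest known, fell to 35.2 CPM per kilobase. Scgb1a1 entered the list at 3914 CPM per kilobase through control 19 alone.

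Some genes that every cell uses had no or few counts. Of the 13 protein-coding mitochondrial genes, COX2, COX3, ATP6, ATP8 and ND4L are listed at 0 in all 10 hearts, and ND3 at 2.32 to 6.38 CPM. The cause was not tested. Gapdh, a glycolytic enzyme with many near-identical copies in the mouse genome, stood at 88.8 ± 22.5 CPM, and Ppia, a peptidyl-prolyl isomerase also with copies, at 6.14 ± 0.699 CPM. A low value of a gene with copies is uncertain, and so is any share summed over such genes.

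By function, the 13 protein-coding mitochondrial genes took the largest share, 20.8 ± 2.2% of counts (SD, n = 10), or 21.1 ± 1.99% without control 19. Of these genes, 5 are listed at 0 in every heart, so the share rests on the others and is uncertain. The share was lowest in control 19 (17.5%) and highest in control 10 (25.4%) and control 2 (23.5%), with the other 7 hearts between 19.5% and 20.9%. Nuclear genes of oxidative phosphorylation took 3.42 ± 0.453% (3.55 ± 0.15% without control 19). Their share varied little among those 9 hearts, from 3.35% to 3.75%. Citric acid cycle and pyruvate dehydrogenase genes took 1.43 ± 0.21% (1.49 ± 0.0797% without control 19), led by malate dehydrogenase Mdh1 (2052 ± 270 CPM), and the oxoglutarate dehydrogenase gene Ogdh stood at 1252 ± 328 CPM. Genes of fatty acid use took 1.81 ± 0.195%, against a share of glycolysis and glycogen of 0.948 ± 0.163%. Without control 19 these shares were 1.86 ± 0.118% and 0.99 ± 0.1%. After Lpl, the fatty acid transporter Cd36 (2098 ± 250 CPM), the carrier Fabp3 (1400 ± 172) and the oxidation enzymes Acadm (981 ± 157) and Hadha (930 ± 160) led the first, and aldolase Aldoa (1568 ± 355) and the heart lactate dehydrogenase Ldhb (881 ± 143) the second.

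The contractile apparatus, summed over 3 lists, took more than any single list except the mitochondrially encoded genes. Thick filament genes took 2.96 ± 0.722% of counts, thin filament genes 2.33 ± 0.478% and titin and the Z-disc 1.65 ± 0.36%. Without control 19 they took 3.16 ± 0.357%, 2.47 ± 0.202% and 1.74 ± 0.203%. The 3 together made 6.94 ± 1.53% over all 10 hearts and 7.38 ± 0.703% without control 19, where they were 3.01%. Control 13 had the highest sum, 8.91%, and the other 8 hearts lay between 6.7% and 7.93%. Calcium handling took 1.86 ± 0.326% (1.95 ± 0.139% without control 19). After Atp2a2 it was led by the calcium release channel Ryr2 (1608 ± 336 CPM), phospholamban (Pln, the brake on the calcium pump, 1320 ± 270) and the calcium store Casq2 (989 ± 141). The creatine, adenylate and oxygen buffering genes, Mb and Slc25a4 among them, took 1.92 ± 0.287% (2 ± 0.146% without control 19).

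Housekeeping and stroma took less. Cytosolic ribosomal proteins held 0.856 ± 0.0687%, translation factors 0.813 ± 0.0442%, protein folding 0.756 ± 0.0796% and ubiquitin and proteasome genes 0.373 ± 0.0115%. Without control 19 these 4 shares were 0.841 ± 0.0543%, 0.812 ± 0.0468%, 0.773 ± 0.0631% and 0.374 ± 0.0119%. Ribosomal protein genes have many processed copies, which makes their share uncertain here. Extracellular matrix took 0.657 ± 0.0647% (0.654 ± 0.0677% without control 19), led by the proteoglycans decorin (Dcn, 984 ± 163 CPM) and biglycan (Bgn, 472 ± 86.0) and the calcification inhibitor Mgp (452 ± 134). The fibrillar collagens Col3a1 and Col1a1 stood at 330 ± 80.9 and 98.4 ± 22.0 CPM. All 24 function lists together covered 44 ± 4.05% of counts.

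**Figure D2:**
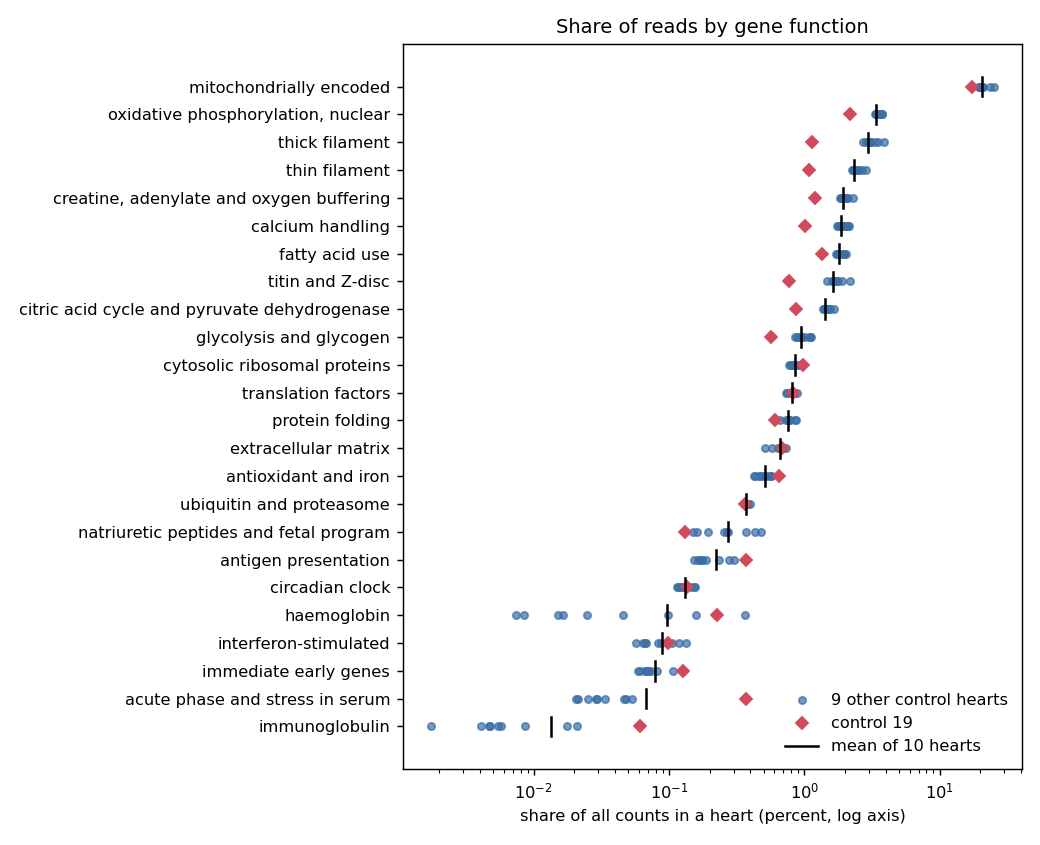
Share of all counts (percent, log axis) taken by each of 24 gene lists in each control heart. Circles are the 9 other hearts, diamonds control 19, and ticks the mean of 10. The contractile and calcium lists, nuclear oxidative phosphorylation and the citric acid cycle were lowest in control 19, while haemoglobin ran from 0.00745% to 0.365%.

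Related genes were set side by side in 20 pairs, most of them a cardiac, ventricular or muscle form against another form, as log2 of the ratio of CPM per kilobase. The gene named first led in every heart in 17 of them and trailed in every heart in 1. Myh6 exceeded Myh7, the slow myosin that marks the fetal and the loaded ventricle, by 4.39 ± 0.47 log2 units, which is 20.9-fold. The difference ran from 3.79 in controls 16 and 17 to 5.08 in control 1. Actc1 exceeded the skeletal actin Acta1 by 5.24 ± 0.80, with the smallest margin in control 13 (4.01), where Acta1 was 414 CPM. Tnnt2 exceeded the slow skeletal troponin Tnnt1 by 9.22 ± 0.18 and Atp2a2 the fast skeletal pump Atp2a1 by 11.85 ± 0.36, and the first of these had the smallest SD of the 20 pairs over 10 hearts. Tnni3 far exceeded Tnni1, but Tnni1 never passed 0.871 CPM, a handful of counts, so its margin is imprecise. The margins of ventricular over atrial light chains were smaller, 3.50 ± 0.82 for Myl2 over Myl7 and 2.48 ± 0.70 for Myl3 over Myl4, and so was that of the calcium pump inhibitors Pln over Sln, 2.17 ± 0.65. Control 20 had the smallest margin in all 3.

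Among metabolic pairs, the muscle creatine kinase Ckm exceeded the brain form Ckb by 3.92 ± 0.29. Slc25a4 exceeded Slc25a5 by 3.21 ± 0.19, the muscle carnitine palmitoyltransferase Cpt1b the liver form Cpt1a by 2.72 ± 0.70 (2.93 ± 0.22 without control 19), and the insulin-responsive glucose transporter Slc2a4 exceeded Slc2a1 by 4.09 ± 0.56 (4.25 ± 0.29). Ldhb exceeded Ldha by 1.01 ± 0.30, the oxidase subunit Cox6a2 exceeded Cox6a1 by 2.95 ± 0.60 (3.11 ± 0.34 without control 19), and Cox7a1 exceeded Cox7a2 by 1.21 ± 0.35. The pair that went the other way was elongation factor 1 alpha: the muscle form Eef1a2 lay below the general form Eef1a1 in all 10 hearts, by 1.22 log2 units on average, a difference of -1.22 ± 0.74. In control 19 it was -3.09, and in the other 9 hearts -1.02 ± 0.37. Hk2 lay above Hk1 in 8 of 10 hearts (0.33 ± 0.32). Pdk4, a brake on pyruvate oxidation, lay above Pdk2 in 2 of 10 hearts (-0.81 ± 0.93).

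The second question was how much the hearts differed. For each of the 14606 genes the spread of counts over hearts was tested against counting noise alone, with a chi-square test of dispersion and Benjamini-Hochberg adjustment over all genes. At an adjusted p of 0.05, 12376 genes (84.7%) varied by more than counting, and 10563 of 14256 genes (74.1%) did so without control 19. Since most genes pass, the size of the spread says more than the call. It is given below as the coefficient of variation (CV, SD over mean) after the counting variance is removed. Its median was 16.3% over 10 hearts and 11.7% without control 19. It exceeded 100% for 744 genes, of which 643 were highest in control 19, and for 157 genes without that heart. Control 19 was the highest heart for 6300 of all 14606 genes, and some of the 744 reached a mean of 1 CPM only through it. The CV was under 10% for 3471 genes, and for 5768 without control 19. The common biological coefficient of variation of edgeR was 33% and 19.5%. Differences between animals and between library preparations are both in these values and cannot be told apart, since each animal gave 1 library.

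**Figure D3:**
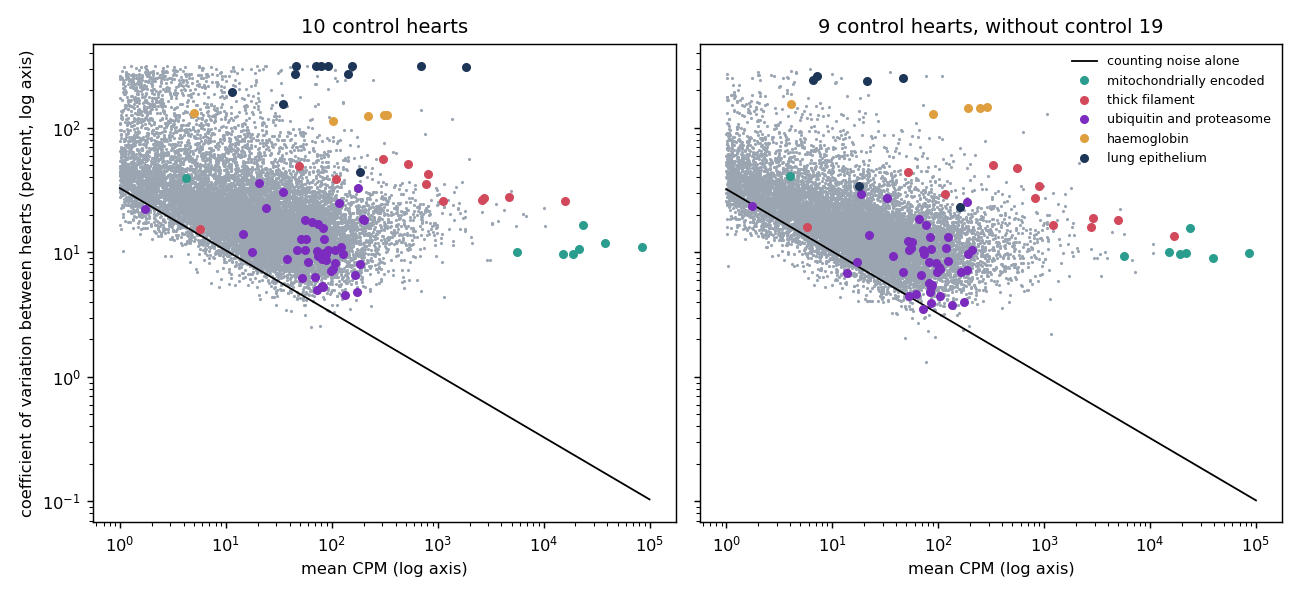
Coefficient of variation between hearts (percent, log axis) against mean CPM (log axis) for every gene of at least 1 CPM, over all 10 control hearts and without control 19. The black line is what counting noise alone would give. Lung epithelium and haemoglobin genes lie far above the cloud, and mitochondrially encoded genes near 10% CV except ND3.

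Several contractile and energy lists varied no more than the median gene once control 19 was left out, and others varied more. The 85 nuclear oxidative phosphorylation genes had a median CV of 7.77% (13.9% with control 19), and all 85 were called over 10 hearts and 81 without that heart, against 84.7% and 74.1% of all genes. Thin filament genes had a median of 9.78% (20.6% with control 19), calcium handling 11.7% (21.5%), and the citric acid cycle 9.48% (16.8%). Above the median of 11.7% over all genes lay fatty acid use at 12.3% (16.1% with control 19), titin and the Z-disc at 15.3% (24.4%), glycolysis at 17.1% (22.2%) and the thick filament at 23.2% (31.6%). Ryr2 varied by 6.4%, Tnnt2 by 6.89% and Atp5a1 by 6.41% among the 9 hearts. Within the thin filament, Acta1 varied most at 68.6%, ahead of Tpm2 (31.1%) and Actc1 (22.3%). Acta1 ran from 50.4 CPM in control 11 to 414 CPM in control 13 with a median of 138. Control 13 was the heart with the highest Myh6 as well. Within the thick filament the widest spread was in the atrial light chains Myl7 (50.5%) and Myl4 (47.3%).

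Ubiquitin and proteasome genes were the steadiest of the function lists. They had a median CV of 9.21% over 10 hearts and 7.48% without control 19, and their summed share, 0.36% to 0.399%, was the narrowest relative range of the function lists. Among genes of at least 100 CPM, the smallest spread over all 10 hearts was that of Zfand5, a zinc finger protein that binds ubiquitin, at 99.8 to 112 CPM with a median of 105. Lman1, a cargo receptor of the secretory pathway, followed at 94.5 to 106 CPM, Dlg1, a membrane scaffold, at 108 to 120 CPM, and the mitochondrial adenylate kinase Ak3 at 142 to 158 CPM. These 4 genes were not called (adjusted p of the chi-square dispersion test 0.47, 0.18, 0.177 and 0.0939), and no other gene above 100 CPM escaped the call over 10 hearts. They were chosen for a small spread over all 10 hearts, so control 19 could not stand apart for them. Without it, Wdr26 (162 to 175 CPM), Plcg1 and Spop also joined the lowest values, and the translation initiation factor Eif4g2, at 1171 ± 25.9 CPM (SD, n = 9), varied by 2%.

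The widest spreads among the marker lists over 10 hearts were those of lung epithelium, neutrophils and liver (median CV 310%, 287% and 178%, with 2 liver genes tested). Of the lung and neutrophil lists, 12 and 10 genes reached a mean of 1 CPM over 10 hearts, but 6 and 9 without control 19. The rest passed only through that heart, so their wide spread over 10 hearts was set by the filter. Without control 19 the medians were 241%, 126% and 175%, over the smaller lung and neutrophil sets. The red cell list, at 145%, then lay above the neutrophil list. Genes of red cells, fat and some immune cells also varied widely. The globin Hba-a1 was lowest in control 16 (24.7 CPM), had a median of 128, and reached 687 CPM in control 19 and 1328 CPM in control 17. Hearts 17, 19 and 1 were the 3 highest, and Hbb-b1 followed it closely, from 19.2 to 1092 CPM. Alas2, the haem synthesis enzyme of red cells, ran from 10.7 to 346 CPM in the same direction. The haemoglobin list varied by a median CV of 126% over 10 hearts and 144% without control 19, so the spread was as wide without that heart. Control 17 also led for platelet genes: the platelet chemokine Ppbp was 129 CPM there, 73.4 CPM in control 19 and 5.32 to 19 CPM in the other 8. The platelet integrin Itga2b stood at 102 CPM in control 17, 39.6 in control 19 and 5.20 to 13.9 elsewhere, and the receptor subunits Gp9 and Gp1bb were 20.9 and 21.7 CPM in control 17. Blood left in the organ was not measured by any other readout, so its part in these values was not tested.

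Fat cell genes split the hearts. The adipokine Adipoq was 6.09 to 11.5 CPM in controls 16, 13, 11 and 2, 39.9 CPM in control 7, and 64.0 to 87.5 CPM in controls 17, 19, 10, 20 and 1. Ucp1, the uncoupling protein of brown fat, ran from 1.44 CPM in control 16 to 78.5 CPM in control 10, with a median of 19.9. The carbonic anhydrase Car3 (14.2 to 218 CPM) and the desaturase Scd1 (87.5 to 1886 CPM) were low in the same 4 hearts as Adipoq. All 12 adipocyte markers were called over 10 hearts and without control 19, against 84.7% and 74.1% of all genes, with a median CV of 79.6% (85.4% without control 19), and their sum ran from 169 to 2579 CPM. How much fat was left on each heart was not recorded in the labels, and its part in these values was not tested.

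Immune cell genes marked single hearts. Control 2 stood apart for genes of alternatively activated macrophages: arginase Arg1 was 82.1 CPM there and at most 2.73 CPM elsewhere, the resistin-like Retnla 608 against at most 31.5, and the chemokine Ccl8 364 against 19.2 to 64.7 CPM. The ribonuclease gene Ear11 was 55.4 CPM in control 2 and listed at 0 in the other 9, where 3 counts would be 0.283 to 0.426 CPM. Chi3l3, which has near-identical copies, was 293 CPM in control 2 and 1015 CPM in control 19. The resident macrophage genes were less extreme: control 2 was highest for C1qa (173 CPM, others 79.0 to 145), Mrc1 (177, others 55.7 to 129) and Cd163 (94.1, others 35.4 to 69.4). The sum of the 14 macrophage markers was instead highest in control 19 (4339 CPM). It was 1681 CPM in control 2 and 803 to 1267 CPM in the others. The list includes Lyz2, whose level in control 19 is given below.

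Control 11 stood at opposite ends for T cell and B cell genes. It was highest for the T cell genes Lck (22.6 CPM, others 1.33 to 10.9) and Tcf7 (24.7, others 1.60 to 10.1), and for the interleukin receptor chain Il2rb (39.8, others 2.18 to 8.52). The same heart was lowest for B cell genes. The B cell antigen Ms4a1 had no count in control 11, where 3 counts would be 0.328 CPM, while it ran from 2.83 to 77.6 CPM in the others with controls 16 and 7 highest. Cd79a, part of the B cell receptor, was 0.328 CPM in control 11 and 2.53 to 63.4 CPM elsewhere. Igk, an immunoglobulin light chain gene, was lowest in control 11 (6.01 CPM) and highest in control 16 (188 CPM). The opposite order was not general: the B and plasma cell markers summed to 584 CPM in control 19, the highest heart, where the T and NK cell markers were second highest at 81.3 CPM after 103 in control 11. All 10 B and plasma cell markers were called with and without control 19, against 84.7% and 74.1% of all genes, at a median CV of 109% and 104%.

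**Figure D4:**
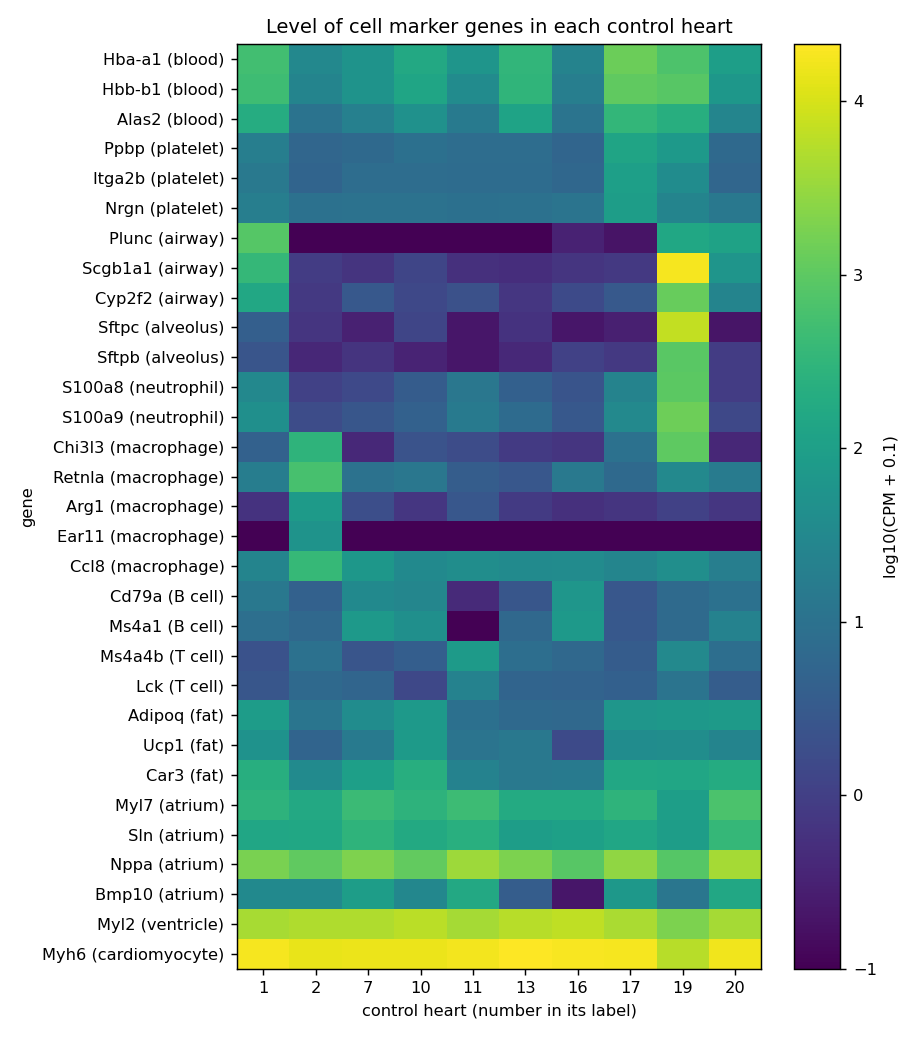
Level of marker genes, as log10(CPM + 0.1), in each of the 10 control hearts. Colour runs from dark (none) to yellow (high), and hearts are columns. Blood and platelet genes peak in control 17, Arg1, Retnla, Ear11 and Ccl8 in control 2, T cell genes in control 11, airway genes in controls 1, 19 and 20, and surfactant genes in control 19.

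Interferon-stimulated and antigen-presenting genes spanned a narrower range. The 22 interferon-stimulated genes took 0.0572% to 0.133% of counts, with a median CV of 27% (27.3% without control 19), and all 22 were called both times, against 84.7% and 74.1% of all genes. The GTPase Iigp1, an effector against intracellular pathogens, ran from 56.0 CPM in control 1 through a median of 98.1 to 289 CPM in control 16. Controls 16, 11 and 2 were the 3 highest for Iigp1 and for the related Igtp (25 to 144 CPM). The class II genes H2-Aa (52.3 to 255 CPM) and Cd74 (103 to 410 CPM) were highest in controls 19, 16 and 2 and lowest in control 17. Chit1, a chitinase of activated macrophages, was 16.5 CPM in control 16 and at most 0.969 CPM elsewhere. Glycam1, a mucin of specialised venules in lymph nodes, was 35.3 CPM in control 13 and at most 1.36 CPM in the other hearts.

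Control 19 held the largest number of genes of its own. In it 662 genes stood at least 3-fold above the next highest heart, with 0.5 CPM added to both, while the count was 0 to 7 genes in each of the others. Genes were kept by a mean of at least 1 CPM over all 10 hearts. Some of the 662 passed that filter only through control 19, such as Cldn18 (mean 19.7 CPM, and 0.0117 CPM without control 19). Among the 9 hearts without control 19 the count was 35 genes in control 1, 21 each in controls 11 and 17, 13 in control 2 and 0 to 6 in the others. Beside the lung genes it was highest for neutrophil genes: S100a9, a calcium-binding protein abundant in those cells, was 1448 CPM there and 1.36 to 45.9 CPM elsewhere. The joining chain Igj was 519 CPM against 7.26 to 38.6, and the macrophage lysozyme Lyz2, also a gene of lung cells, 3480 against 304 to 489 CPM. Without control 19, the genes of widest spread above 10 CPM were those named above for control 2 (Chi3l3, Arg1 and Retnla) and airway genes of control 1, Plunc (855 CPM, 117 in control 20, at most 0.221 in the 7 others), Scgb1a1, Cyp2f2 and Cyp2a5.

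Atrial genes rose and fell together. The atrial light chain Myl7 was 96.5 CPM in control 19, had a median of 278, and reached 675 CPM in control 20, with controls 11 (451) and 7 (422) next. Nppa, whose peptide lowers blood volume, ran from 861 CPM in control 19 through a median of 1852 to 4059 CPM in control 20. Bmp10, an atrial growth factor, was 0.111 CPM in control 16, 3.64 in control 13, 159 in control 20 and 167 CPM in control 11. The sarcolipin gene Sln, an inhibitor of the calcium pump in the atrium, ran from 92.3 to 359 CPM, again highest in control 20. How much atrium each sample held was not recorded in the labels, and its part in these values was not tested. Nppb, the B-type peptide that ventricles release under load, had another order: it was lowest in control 10 (87.9 CPM) and highest in control 2 (447 CPM), with a median of 298.

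Whether known partners vary together was tested for 19 gene pairs, as the Pearson correlation of log2(CPM + 0.5) over the 10 hearts with a permutation test and Benjamini-Hochberg adjustment over the pairs. Of the 19, 11 passed at 0.05, 11 passed without control 19, and 10 passed both times. The globins Hbb-b1 and Hba-a1 were closest (r = 0.99, rho = 0.99, permutation p = 1e-05, the smallest that 100000 resamples gave, adjusted p = 0.00019), with r = 0.99 without controls 17 and 19 and also without control 19 alone. Myl7 and Myl4, the pair of atrial light chains, reached r = 0.96 (rho = 0.95, permutation p = 3e-05, adjusted p = 0.000253) r = 0.96 without control 19, and r = 0.92 without controls 19 and 20, the 2 hearts farthest from the median of Myl7. Nppa followed Myl7 with r = 0.83 (rho = 0.93, permutation p = 0.0025, adjusted p = 0.00671) r = 0.8 without control 19, and r = 0.7 without those 2 hearts. Sln followed Myl7 with r = 0.9 (rho = 0.77, permutation p = 0.00026, adjusted p = 0.000988) r = 0.91 without control 19, and r = 0.84 without them. Nppa and Nppb did not pass (r = 0.42, rho = 0.32, permutation p = 0.222, adjusted p = 0.264), and gave r = 0.35 without control 19 and 0.51 without controls 19 and 20.

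Stress and fuel genes also moved in pairs. The metallothioneins Mt1 and Mt2, which bind zinc and respond to glucocorticoids and metals, correlated at r = 0.96 (rho = 0.89, permutation p = 8e-05, adjusted p = 0.00038), at r = 0.97 without control 19, and at r = 0.91 without controls 1 and 17. Mt1 ran from 69.5 to 178 CPM and Mt2 from 16.2 to 66.7, with controls 17, 1 and 11 highest for both. Pdk4 and the uncoupling protein Ucp3, both targets of the fatty acid sensor PPAR, correlated at r = 0.87 (rho = 0.88, permutation p = 0.00122, adjusted p = 0.00386), with control 1 highest for both (442 and 65.4 CPM) r = 0.87 without control 19, and r = 0.76 without controls 1 and 19. The clock genes Arntl and Dbp, which peak at opposite times of day, gave r = -0.55 (rho = -0.48, permutation p = 0.102, adjusted p = 0.15) and did not pass, with r = -0.43 without controls 2 and 13. Nr4a1 with Egr1, Postn with Col1a1, Nppb with Myh7 and Arntl with Per3 did not pass either, and gave r of 0.52, 0.28, 0.25 and -0.18.

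Leaving out single hearts moved several pairs. Myh6 and Atp2a2 correlated at r = 0.95 over 10 hearts (rho = 0.66, permutation p = 0.00318, adjusted p = 0.00671), but at r = 0.62 over 9 (exact permutation p = 0.0751, adjusted p = 0.119), so the call was lost without control 19. The correlation stayed positive, at r = 0.81 without controls 13 and 19 and 0.73 without controls 2, 13 and 19. Fos and Egr1, immediate early genes that cells switch on within minutes of a stimulus, went the other way: r = 0.68 over 10 hearts (rho = 0.73, permutation p = 0.0345, adjusted p = 0.0546) and r = 0.77 without control 19 (exact permutation p = 0.0161, adjusted p = 0.0306). Without the 2 hearts farthest from the median of Fos, controls 7 and 16, that last value fell to r = 0.19, so it too rests on few hearts. H2-Aa and Cd74 correlated at r = 0.98 (rho = 0.92, permutation p = 4e-05, adjusted p = 0.000253) and at r = 0.97 without control 19, or 0.96 without controls 16 and 19. C1qa and Csf1r, macrophage genes, gave r = 0.76 (rho = 0.81, permutation p = 0.00996, adjusted p = 0.0189) and r = 0.53 without controls 2 and 13. Without control 19 their r was 0.89, and 0.71 without controls 2, 13 and 19. Col1a1 and Col3a1 gave r = 0.76 (rho = 0.72, permutation p = 0.0117, adjusted p = 0.0201) and r = 0.61 without controls 10 and 19. Among the 9 hearts their r was 0.72, and 0.17 without controls 10 and 17, so that relation also rests on few hearts.

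**Figure D5:**
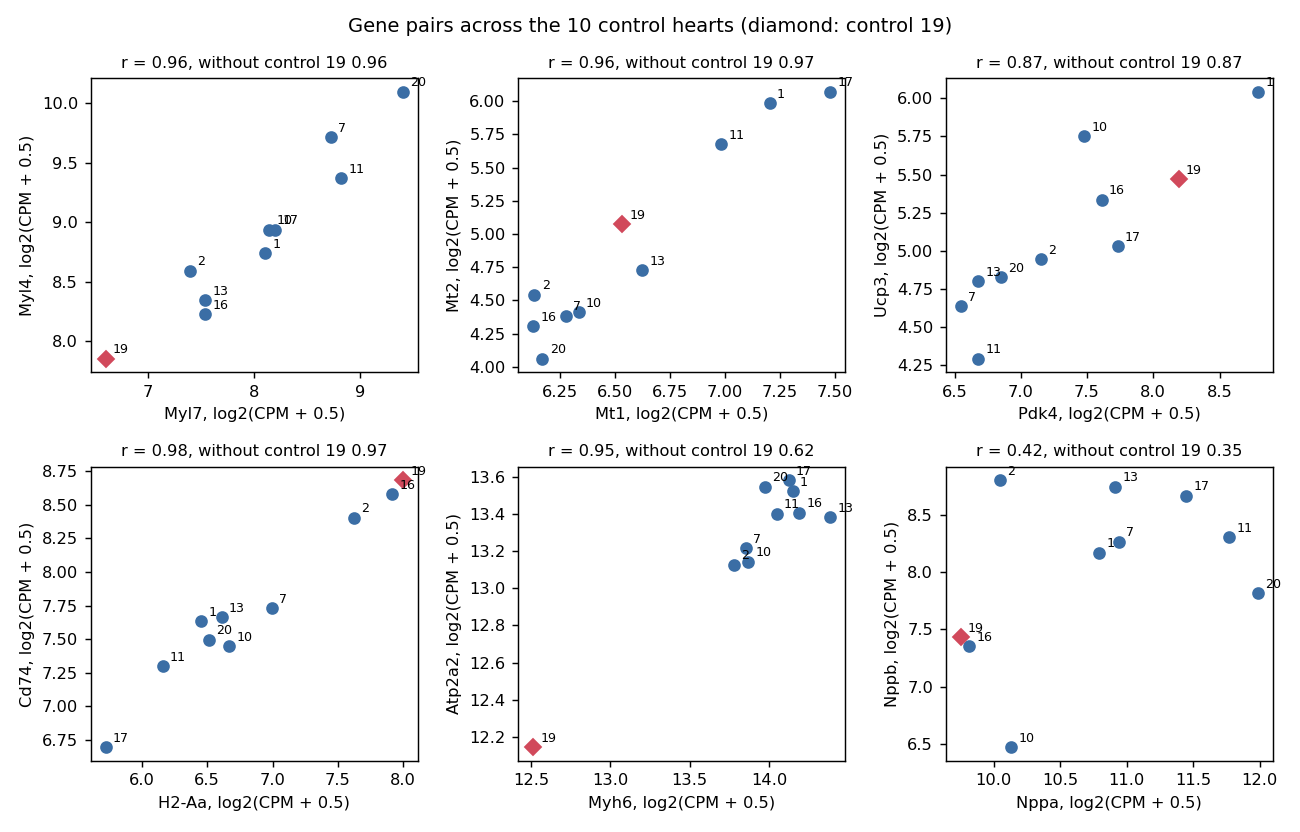
Gene pairs across the 10 control hearts, as log2(CPM + 0.5), with each point labelled by its heart and control 19 as a diamond. The correlation in each title is given with and without control 19. Myl7 and Myl4, Mt1 and Mt2, and H2-Aa and Cd74 lie along a line, control 19 lies far from the other 9 hearts for Myh6 and Atp2a2 (r = 0.95 with it and 0.62 without), and Nppa and Nppb scatter.

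The interferon-stimulated genes Ifit1, which blocks translation of foreign RNA, and Irf7, a transcription factor of the same response, correlated at r = 0.84 (rho = 0.76, permutation p = 0.00312, adjusted p = 0.00671) and r = 0.91 without control 19, or r = 0.7 without controls 1 and 10. Ifit1 was lowest in control 1 (14.6 CPM), had a median of 28.2 and was highest in control 11 (36.0 CPM). Irf7 was lowest in control 10 (15.3 CPM) and highest in control 11 (49.6 CPM), with a median of 29.4. The 250 bases before the annotated start of both genes are shown, since members of this pair moved together, from RefSeq on GRCm38.p6, a later build than the MGSCv37 genome to which the authors mapped. Capitals mark the core of the interferon-stimulated response element, which is GAAA, any 2 bases and GAAA again, and the TATA box letters TATAAA, on either strand. The Ifit1 window lies at chr19:34640639-34640888 on the plus strand and that of Irf7 at chr7:141266425-141266674 on the minus strand.

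Ifit1: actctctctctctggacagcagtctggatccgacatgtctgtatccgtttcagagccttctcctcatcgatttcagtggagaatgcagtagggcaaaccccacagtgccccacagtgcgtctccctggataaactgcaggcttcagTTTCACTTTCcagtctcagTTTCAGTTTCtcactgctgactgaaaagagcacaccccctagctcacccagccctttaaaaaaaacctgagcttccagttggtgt

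Irf7: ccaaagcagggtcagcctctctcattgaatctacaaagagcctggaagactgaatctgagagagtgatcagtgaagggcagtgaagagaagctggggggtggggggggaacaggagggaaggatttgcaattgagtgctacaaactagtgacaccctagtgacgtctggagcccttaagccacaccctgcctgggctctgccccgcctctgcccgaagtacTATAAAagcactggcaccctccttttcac

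Ifit1 held 2 matches to the response element, 104 to 95 and 85 to 76 bases before the start and both on the opposite strand, while Irf7 held none in this window and TATAAA 1 time. Of 32851 such windows in the RefSeq table, 2.98% held at least 1 match to the response element, 0.18% at least 2, and 12.4% at least 1 TATAAA. A match is a run of letters and was not tested for function in these hearts.

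The windows of the atrial pair Nppa and Myl7 are shown for the same reason. Capitals mark TATAAA and the CArG box, a site of serum response factor, on either strand. Only the exact letters CCWWWWWWGG, where W is A or T, were counted as a CArG box. The Nppa window lies at chr4:148000472-148000721 on the plus strand and that of Myl7 at chr11:5898783-5899032 on the minus strand of GRCm38.p6, both from RefSeq.

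Nppa: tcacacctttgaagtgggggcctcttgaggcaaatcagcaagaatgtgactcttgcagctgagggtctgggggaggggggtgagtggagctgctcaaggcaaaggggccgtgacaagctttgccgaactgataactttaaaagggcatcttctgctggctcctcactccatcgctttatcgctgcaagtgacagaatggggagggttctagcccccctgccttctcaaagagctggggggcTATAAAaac

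Myl7: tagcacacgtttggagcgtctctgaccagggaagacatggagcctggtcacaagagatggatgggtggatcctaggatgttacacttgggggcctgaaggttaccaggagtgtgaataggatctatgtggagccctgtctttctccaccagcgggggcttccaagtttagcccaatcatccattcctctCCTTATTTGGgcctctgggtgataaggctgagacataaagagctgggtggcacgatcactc

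Myl7 held 1 exact CArG box, 61 to 52 bases before the start. Nppa held no exact match in this window but 1 TATAAA. An exact CArG box was found in 1.47% of the 32851 windows. Runs that differ from these letters by 1 base, such as ctttaaaagg in the Nppa window, were not counted. Both genes were highest in control 20 and lowest in control 19, at 4059 and 861 CPM for Nppa and at 675 and 96.5 CPM for Myl7.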

How the data were processed

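The authors deposited raw read counts per gene for 20 hearts, and the 10 control columns were used, assigned by column name. Per the series' design text, only reads placed at a unique site of the MGSCv37 genome were kept, with 2 mismatches at most, mates 130 to 300 apart and a minimum of 5 reads for a mapping. Which aligner and counter made the table is not given in the sources used here. The submitters' processing notes name edgeR.

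Whether counting used the strand is not given in the sources used here. Reads of a gene and of its antisense or overlapping neighbour may therefore be mixed, and reads of near-identical copies are uncertain.

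Counts were divided by the column total to give CPM. Transcript lengths came from GENCODE M21 on GRCm38 for 12677 of 14606 genes. Spread was tested on genes of at least 1 CPM with a chi-square test of dispersion and Benjamini-Hochberg adjustment. The test was checked on simulated counts, with 50 genes at each size of spread. It recovered 44% of genes at a CV of 10%, 70% at 20%, 92% at 40% and 100% at 80%. Of its calls, 4.97% were false. Few genes varied in the simulation, whereas most varied in these hearts. Pairs were tested by permutation of log2(CPM + 0.5) with 100000 resamples, or exactly over 9 hearts. Tools were Python 3.11.15, scipy 1.17.1, R 4.3.3, edgeR 4.0.16 and DESeq2 1.42.0 (size factors only).

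The members and gene lists were chosen with earlier results of these data known. Named genes are the 20 highest, the 15 of widest and narrowest spread, the leading members of each list, and the genes of the fixed pairs. Il2rb, Gp9, Gp1bb, Nrgn, Gapdh and Ppia were chosen after their values were seen. Every pair of the 10 libraries differed by more than sampling noise (chi-square per degree of freedom at least 8.12 in each of 45 pairs). The labels give no batch and no date. A few genes and 1 of the 19 pairs are not reported here by name.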

Additional observations from a re-analysis of the deposited data

Results flagged for a closer look

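Each of 64 quantities (the 24 function shares, the 20 highest genes and the 20 isoform ratios) was searched for a heart lying far from the other 9, by the gap to its nearest neighbour over the whole range. In 28 of them 1 heart did, and in all 28 it was control 19, the heart with lung transcripts. Chance alone would flag about 1 in 20 groups if the groups were independent. The 64 quantities share genes and come from the same 10 libraries, so that rate is no reference for the 28.

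Control 19 was low for the share of counts of 9 function lists: thick filament 1.14%, thin filament 1.09%, titin and Z-disc 0.777%, calcium handling 1.01%, nuclear oxidative phosphorylation 2.19%, fatty acid use 1.36%, citric acid cycle 0.869%, glycolysis 0.568%, and creatine, adenylate and oxygen buffering 1.2%. It was high for immunoglobulin genes (0.0611%) and for acute phase genes (0.369%, against 0.0206% to 0.053% in the others).

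It was also low for 9 of the 20 highest genes, with Myh6 at 5847 CPM, Mb at 6494, Atp2a2 at 4521, Tnnt2 at 3286, Tpm1 at 3067, Atp5b at 2078, Ttn at 1303, Atp5a1 at 1800 and Slc25a4 at 1955 CPM.

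On the log2 scale of CPM per kilobase it was low for 8 ratios. These were Atp2a2 over Atp2a1 at 11.01, Ckm over Ckb at 3.22, Slc2a4 over Slc2a1 at 2.70 and Cpt1b over Cpt1a at 0.83. The others were Cox6a2 over Cox6a1 at 1.5, Cox7a1 over Cox7a2 at 0.31, Eef1a2 over Eef1a1 at -3.09 and Slc25a4 over Slc25a5 at 2.73.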

How the results depend on the processing

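No result reversed under any setting tried. The number of genes varying beyond counting was 10563 to 12318 when each heart was left out in turn, and 7997 (56.4%) without controls 19, 1, 20, 7 and 17, where 5 hearts remain. The median CV was 11.7% to 16.8% with each heart left out and 10.7% without those 5. Genes over 100% CV depended most on the choices: 2290 without a filter on low genes, 255 at a mean of at least 5 CPM, 157 to 776 with each heart left out (157 without control 19), 137 without controls 19, 1 and 20, and 123 without all 5. The common edgeR variation fell to 19.5% without control 19. With the mitochondrially encoded genes taken out of the denominator, the shares were 4.32% for nuclear oxidative phosphorylation, 1.08% for ribosomal proteins, 0.829% for extracellular matrix and 8.78% for the 3 sarcomere lists. The other 71 values of main results stayed the same by their own spread or within 1.5 times. Genes of a few CPM rest on few counts a heart, which limits their spread values. No paired analysis was possible because each library number occurs in a single group and no groups were compared.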

Other observations

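Some gene groups were not described above. The smooth muscle genes Tagln (9.51 to 53.9 CPM), Cnn1 (0.911 to 10.5 CPM) and Myh11 (22.2 to 77.8 CPM), which build the contractile apparatus of vessel walls, were all lowest in control 13. The sum of all 12 smooth muscle and pericyte markers went the other way, highest in control 13 (2929 CPM, others 1298 to 2712), of which Des, a gene that heart muscle cells also express, made 1891 CPM. Control 11 was highest for the mesothelial genes Upk3b (72.6 CPM, lowest 15.5 in control 13) and Wt1 (37.7 CPM, lowest 12.5 in control 19), which mark the outer covering of the heart. The sum of the 11 mesothelium and epicardium markers was highest in control 19 (453 CPM), where the keratin gene Krt19 was 78.4 CPM, and second in control 11 (298 CPM). The acute phase gene Serpina3n ran from 17.8 CPM in control 16 to 174 CPM in control 17, and the immediate early gene Egr1 from 13.5 CPM in control 17 to 118 CPM in control 7, where Nr4a1 was also highest (53.2 CPM).

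The 19 clock genes had a median CV of 20.4% over 10 hearts and 21.6% without control 19, against 16.3% and 11.7% for all genes. Arntl ran from 2.73 CPM in control 13 to 12 CPM in control 2, and Dbp from 57.8 CPM in control 11 to 123 CPM in control 7. The time of day at which each heart was taken is not given in the sources used here.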
